A study of Danio rerio with 4 samples.

Results

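The genes that encode the proteins of the cytosolic ribosome were examined in sorted venous and lymphatic endothelial cells of zebrafish embryos that lack tie1 and of their siblings. Members were chosen by symbol alone: names beginning with rpl or rps and a digit, or with rplp or rpsa, without hyphenated names, rps6k names and rps27l. This gave 79 genes of the 29027 listed, of which 43 encode proteins of the large (60S) subunit and 33 proteins of the small (40S) subunit. The remaining 3 matched the name but are not core ribosomal proteins: rps19bp1, which encodes a protein that binds Rps19, rpl7l1, a relative of rpl7, and rpl22l1, a relative of rpl22. All 79 symbols matched a RefSeq symbol or synonym.

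Tie1 is an endothelial receptor tyrosine kinase of the angiopoietin receptor family, and the study compared 2 libraries from tie1-/- embryos with 2 libraries from tie1+/? siblings, in which wild-type and heterozygous animals were pooled. All embryos were 47 hours post fertilization and carried Tg(kdrl:EGFP), an endothelial reporter, and Tg(lyve1:DsRed), a reporter of venous and lymphatic endothelium. Trunks and tails were dissociated, cells positive for both reporters were sorted, and only mutant embryos with blood flow were taken. The number of embryos per library and the separation of the replicates by clutch are not given in the labels, so p-values reach no further than these libraries. They rest on the spread pooled over genes of similar level, not on each gene's own replicate spread.

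The ribosome joins a small subunit, which reads the mRNA, to a large subunit, which forms the peptide bond. Each core protein is present once per ribosome except the acidic stalk proteins, and in vertebrates surplus copies made without partners are degraded. The mRNAs of these genes begin with a pyrimidine tract, the TOP motif, through which mTOR signalling and Larp1 control their translation together. Endothelial cells that grow and divide need new ribosomes, and zebrafish with mutations in single ribosomal protein genes have developmental and blood defects.

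The 4 libraries differed over the whole table before any member was compared. All listed genes summed to 813042 and 736606 TPM (a share of all transcripts, scaled for transcript length) in sibling replicates 1 and 2, and to 602394 and 481065 TPM in mutant replicates 1 and 2. A background limit was set in each library as the 95th percentile of 328 sensory receptor and lens crystallin genes, which endothelial cells are presumed not to express. It was 3.93 and 6.44 TPM in siblings against 13.7 and 18.9 TPM in mutants. Read depth cannot be had from TPM. The targeted gene tie1 had 61.0 and 31.0 TPM in siblings against 16.7 and 10.2 TPM in mutants, a log2 fold change of -1.66 (adjusted p = 0.0605 by limma). Of 12 endothelial markers all 12 exceeded the limit in both siblings, 9 did in mutant replicate 1 and 7 in mutant replicate 2. The full marker set was thus resolved above background in the siblings only. These counts depend on the higher limit in the mutants. Each marker under it there, the lowest being esama at 6.995 TPM in mutant replicate 1, was above both sibling limits. The median of the presumed unexpressed genes was also higher in mutants, at 8.38 and 11.05 TPM against 2.27 and 3.66 TPM in siblings. The level of esama was below that median in both mutants, and those of tek and tie1 were below it in mutant replicate 2. A mutant level above the sibling limits thus does not show that a marker was above background.

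Ribosomal protein mRNA was lower in both mutant libraries than in both sibling libraries. The 79 genes summed to 52051 TPM in sibling replicate 1 and 38408 TPM in sibling replicate 2, against 22669 and 8799 TPM in mutants 1 and 2. The mutant mean of 15730 ± 9808 TPM was 0.348 of the sibling mean of 45230 ± 9647 TPM (SD, n = 2 each). Mutant replicate 1 retained 50.1% of the sibling mean and mutant replicate 2 retained 19.5%, so the size of the difference was set mainly by mutant replicate 2. The family median was 563.6 and 398.2 TPM in siblings against 236.2 and 92.6 TPM in mutants. The siblings differed from each other in the same way throughout the family, with 73 of 79 genes lower in replicate 2 than in replicate 1. In bulk RNA, fewer cells of a type and less RNA per cell cannot be told apart.

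The share and the rank of the family among other genes were also lower in the mutants. Ribosomal protein genes made up 6.40% and 5.21% of all listed TPM in the siblings and 3.76% and 1.83% in the mutants. Among genes above the background limit of each library, their share was 6.72% and 5.74% in the siblings and 5.31% and 4.16% in the mutants. Both shares were lower in both mutant libraries, and the gap was narrower for the second. The median member stood at percentile 99.2 and 99.1 of all listed genes in the siblings and at percentile 98.9 and 99.0 in the mutants. A percentile this near the top of the table has little room to move, and counts among the most abundant genes resolve it further. Among the 200 most abundant genes of each library there were 35 and 28 members in the siblings against 21 and 24 in the mutants, fewer in both mutants than in either sibling. Among the 500 most abundant there were 65 and 62 in the siblings and 63 and 58 in the mutants, and here the groups overlapped.

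**Figure D1:**
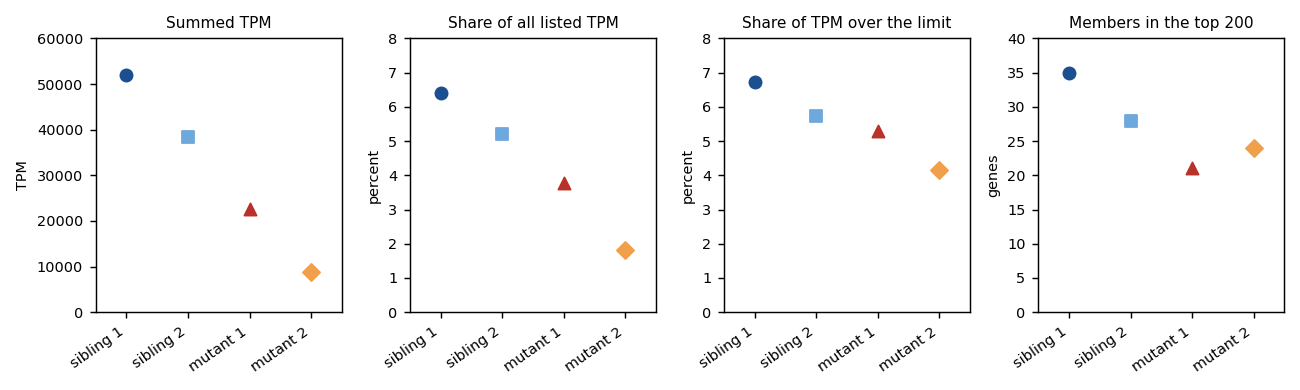
Ribosomal protein genes as a whole in each library: summed TPM, percent of all listed TPM, percent of the TPM of genes above the background limit, and the number of the 79 members among the 200 most abundant genes. Each point is 1 library, and all 4 measures are lower in both mutants than in both siblings.

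All 79 members passed the filter of a mean of at least 1 TPM, and none was at 0 in any library. In limma on log2(TPM + 1), with Benjamini-Hochberg adjustment over all 28301 genes tested, 12 of 79 members (15.2%) passed as lower in mutants at an adjusted p under 0.05, against 4.43% of all genes tested. None of the 79 was higher, also at an unadjusted p under 0.05, whereas 44.6% of all genes were called higher. On the deposited TPM the mutant pair lay wholly below the sibling pair for 73 of 79 members (92.4%), against 12% of all genes. The median log2 fold change of the members was -1.59, with quartiles at -1.93 and -1.24, while the median of all genes was 1.17. Most of the 29027 listed genes were at background level in the mutants, where 4950 and 3066 exceeded the limit. The median of the presumed unexpressed genes was itself 2.27 and 3.66 TPM in siblings against 8.38 and 11.05 TPM in mutants. The shares over all genes thus largely describe genes at that level.

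Abundant genes outside the family behaved much alike. Of 916 other genes with a mean of at least 100 TPM, 35.2% were called lower in limma at the same threshold and 80.5% had both mutant libraries below both siblings. Their median log2 fold change was -1.78, against -1.61 for the 74 members at that level. Of these 74 members 16.2% were called lower and 95.9% had both mutants below both siblings. The mean was taken over all 4 libraries, so a gene could enter through 1 group alone. Such a gene was npm1a, with 437.5 and 375.4 TPM in siblings against 33.5 and 33.7 TPM in mutants. The set was thus not chosen apart from the values compared. Within it lower mutant levels were common, and a smaller share of the family (16.2%) than of the other abundant genes (35.2%) passed the threshold. No test of that difference was made.

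**Figure D2:**
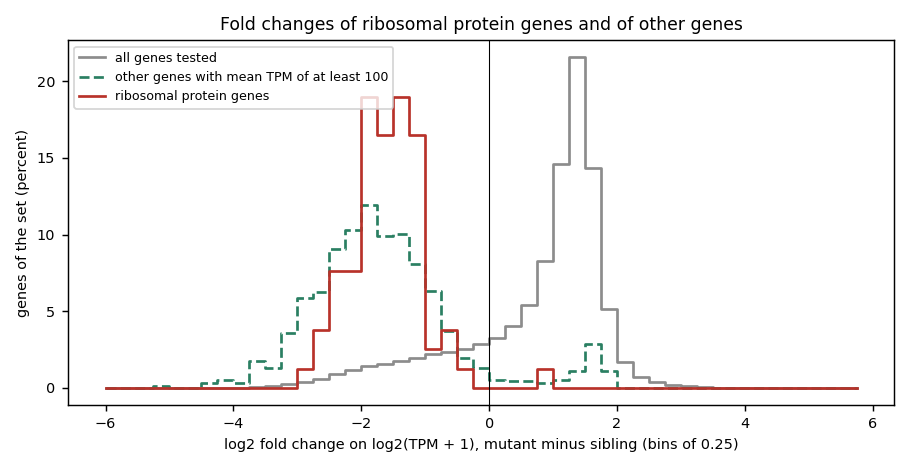
Percent of genes in each bin of log2 fold change (mutant minus sibling, on log2(TPM + 1)) for all genes tested, for other genes with a mean of at least 100 TPM and for the 79 ribosomal protein genes. The ribosomal protein genes lie within the range of the other abundant genes. Their median is -1.59 for all 79 and -1.61 for the 74 with a mean of at least 100 TPM, against -1.78. Of all genes tested 20.3% lie below 0, against 92.7% of the other abundant genes. Most genes of the whole table were under the background limit in the mutants.

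The limma calls of the family rest on the scaling, on the filter on low values and on both siblings. The number of members called lower was 0 after median-of-ratios rescaling (57 at an unadjusted p under 0.05), 0 after quantile normalization (5 unadjusted), 0 without the filter on low values (7 unadjusted) and 0 without sibling replicate 1 (0 unadjusted) or without sibling replicate 2 (1 unadjusted). It was 70 without mutant replicate 1 and 24 without mutant replicate 2. The median log2 fold change was -2.96 after median-of-ratios rescaling and -0.19 after quantile normalization, which compares ranks, and -0.94 without mutant replicate 2. Both mutants lay below both siblings for 73 of 79 members on the deposited TPM. After quantile normalization they did so for 25, against 20.25% of all genes. After median-of-ratios rescaling they did so for 78, against 26.88%. Groups of single genes said not to overlap are those of the deposited TPM. The median-of-ratios factors were 0.49 and 0.77 in siblings and 1.39 and 1.87 in mutants. They were medians over genes above 0 in every library, and most listed genes were at background level in the mutants. The value of -2.96 is thus relative to such genes.

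The levels of the family were led by the same few genes in all libraries. The gene rps20, whose product lies in the head of the small subunit, had 3304 and 2103 TPM in siblings against 1583.5 and 390.5 TPM in mutants, and led the family in 3 of the 4 libraries. The gene rpl32, of the large subunit, had 2833 and 2231 TPM in siblings against 1034 and 253.5 TPM in mutants. The mutant values of both genes lay below both sibling values. Only rpl32 was called lower, with a log2 fold change of -2.29 (SE 0.88, adjusted p = 0.0286 by limma), against -1.74 for rps20 (SE 0.86, adjusted p = 0.0732). With robust moderation rpl32 no longer passed (adjusted p = 0.0583), and with a pseudocount of 5 rps20 did (adjusted p = 0.0246).

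At place 3 in every library was rpl19, whose product bridges the subunits, with 2270.3 and 1565.5 TPM in siblings against 736.1 and 267.6 TPM in mutants (log2 fold change -2.08, SE 0.90, adjusted p = 0.0436 by limma). Its call was lost with a pseudocount of 0.5 (adjusted p = 0.0554), with rescaling to an equal total (0.0571) and with robust moderation (0.0804). The gene rps2, of the mRNA entry site, had 1962 and 1185 TPM in siblings against 482.1 and 348.4 TPM in mutants. For rpl7 the levels were 1141 and 1276 TPM in siblings against 448.2 and 249.7 TPM in mutants. Neither rps2 (adjusted p = 0.0662 by limma) nor rpl7 (adjusted p = 0.0766) passed the threshold, although their groups did not overlap, and rps2 passed with a pseudocount of 5 (adjusted p = 0.0366). Over the 79 genes, log2 levels of the siblings correlated with a Pearson's r of 0.957, those of the mutants with r = 0.725, and mutant replicate 1 with the siblings with r = 0.879 and 0.905. These correlations are across genes, whose points share the same libraries, and are a description only.

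**Figure D3:**
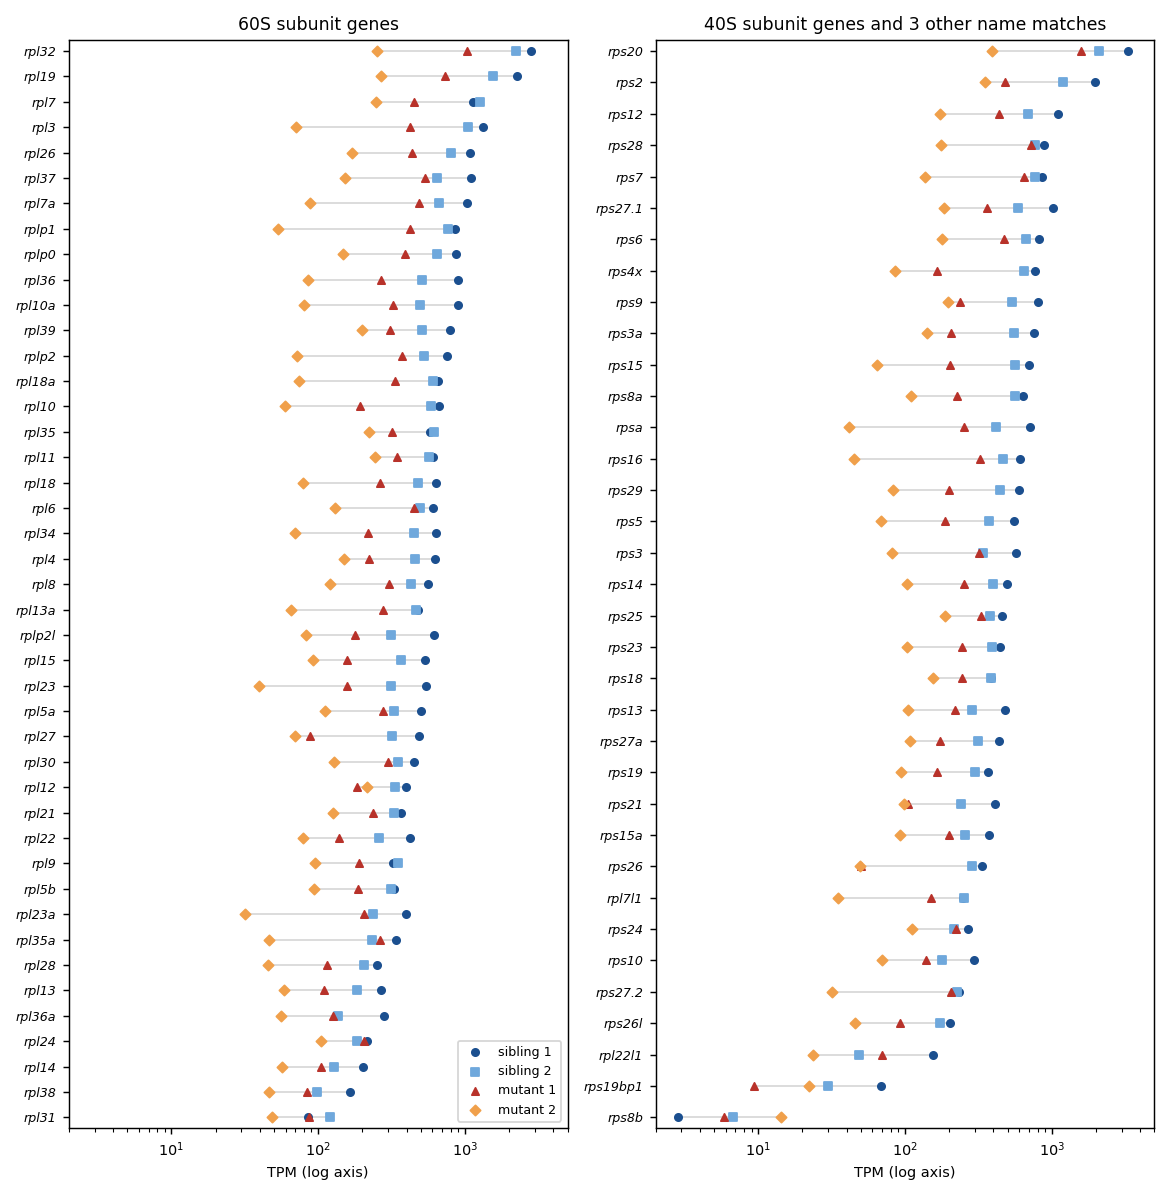
TPM of 78 of the 79 genes in each library, on a log axis, sorted by the sibling mean; circles and squares are siblings, triangles and diamonds mutants, and grey lines span the 4 values. Mutant replicate 2 is lowest for nearly all genes, and rps8b at the foot of the right panel runs the other way at the level of the background limit.

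The lowest log2 fold change of the family was that of rpl3. The gene, whose product reaches toward the peptidyl transferase centre, had 1319.9 and 1058 TPM in siblings against 423.4 and 71.1 TPM in mutants. Within the family it stood at places 5 and 6 in the siblings and at places 14 and 53 in the mutants, with a log2 fold change of -2.76 (SE 0.94, adjusted p = 0.0199 by limma). Without mutant replicate 2 the log2 fold change was -1.48. The gene rpl10, whose product joins the large subunit late and lies near the P site, had 661 and 588.1 TPM in siblings against 194.2 and 59.5 TPM in mutants (log2 fold change -2.52, SE 0.95, adjusted p = 0.0274 by limma).

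Small-subunit genes called lower were rps26, rps4x, rps15 and rpsa. The gene rps26, whose product lines the mRNA exit channel, had 337.1 and 287.2 TPM in siblings against 50.1 and 49.0 TPM in mutants. Its mutant libraries were nearly equal, where 76 of 79 members were lower in mutant replicate 2 than in mutant replicate 1. The log2 fold change was -2.63 (SE 0.94, adjusted p = 0.0234 by limma), and it was -2.64 without mutant replicate 1 and -2.61 without mutant replicate 2.

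The gene rps4x had 769.7 and 648.2 TPM in siblings against 164.9 and 86.0 TPM in mutants (log2 fold change -2.56, SE 0.95, adjusted p = 0.026 by limma). The gene rps15, whose product lies near the decoding site, had 704.6 and 560.4 TPM in siblings against 201.9 and 64.0 TPM in mutants (log2 fold change -2.45, SE 0.95, adjusted p = 0.0302 by limma). For rpsa, which encodes ribosomal protein SA, also known as the laminin receptor precursor, the levels were 712.7 and 418.1 TPM in siblings against 252.4 and 41.7 TPM in mutants (log2 fold change -2.40, SE 0.96, adjusted p = 0.0331 by limma). In all 3 genes both mutants lay below both siblings, with mutant replicate 2 lowest. Without mutant replicate 2, rpsa no longer passed (adjusted p = 0.0752 by limma).

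The stalk of the large subunit, which recruits the translational GTPases, is built from Rplp0 and the acidic proteins Rplp1 and Rplp2. The gene rplp1 had 859.3 and 771.8 TPM in siblings against 423.1 and 53.4 TPM in mutants, and was called lower (log2 fold change -2.42, SE 0.95, adjusted p = 0.0309 by limma). Without mutant replicate 2 its log2 fold change was -0.94 (adjusted p = 0.066 by limma). The scaffold gene rplp0 had 865.0 and 646.7 TPM in siblings against 388.1 and 148.5 TPM in mutants, a log2 fold change of -1.64 that did not pass (adjusted p = 0.124 by limma). For rplp2 the levels were 757.4 and 524.9 TPM against 371.6 and 71.7 TPM, and for its relative rplp2l 617.1 and 312.0 TPM against 177.2 and 82.0 TPM. Neither passed (adjusted p = 0.0721 and 0.0861 by limma), although neither gene's groups overlapped. The gene rpl12, whose product sits at the base of the stalk, had 395.1 and 331.9 TPM in siblings against 184.3 and 213.6 TPM in mutants. It was one of 3 members that were higher in mutant replicate 2 than in mutant replicate 1, with rps8b and rps19bp1, and its log2 fold change of -0.86 did not pass (adjusted p = 0.43 by limma).

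The other called members were the large-subunit genes rpl23, rpl27 and rpl36. The gene rpl23, whose product lies on the face that meets the small subunit, had 540.3 and 312.6 TPM in siblings against 158.5 and 39.8 TPM in mutants. For rpl27 the levels were 485.6 and 320.7 TPM against 88.1 and 69.1 TPM, and for rpl36 they were 903.4 and 508.2 TPM against 269.5 and 85.0 TPM. The log2 fold changes were -2.35 for rpl23, -2.32 for rpl27 and -2.15 for rpl36 (adjusted p = 0.0352, 0.0367 and 0.0484 by limma). The call of rpl36 was lost with a pseudocount of 0.5 (adjusted p = 0.0509), with rescaling to an equal total (0.0591) and with robust moderation (0.0574).

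Other members with well known further roles were rpl11, rpl5a, rpl5b, rps6, rps19, rps14 and rps27a, none of which passed the threshold. Rpl5 and Rpl11 form a particle with a small ribosomal RNA that can bind Mdm2. The gene rpl11 had 601.7 and 567.6 TPM in siblings against 345.2 and 243.4 TPM in mutants, and moved from place 37 and place 21 within the family in the siblings to place 19 and place 6 in the mutants. Its log2 fold change was -1.01 (SE 0.94, adjusted p = 0.348 by limma). For rpl5a the levels were 505.0 and 326.8 TPM against 274.9 and 111.4 TPM, and for rpl5b they were 329.3 and 312.6 TPM against 188.3 and 94.0 TPM (adjusted p = 0.264 and 0.244 by limma).

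The gene rps6, whose product is the substrate after which the S6 kinases are named, had 824.3 and 672.0 TPM in siblings against 469.0 and 177.5 TPM in mutants (log2 fold change -1.36, adjusted p = 0.198 by limma). The gene rps19, mutated in human Diamond-Blackfan anaemia, had 367.4 and 298.7 TPM against 165.1 and 93.4 TPM (log2 fold change -1.41, adjusted p = 0.192 by limma). For rps14, lost in a human myelodysplastic syndrome, the levels were 498.3 and 398.2 TPM against 251.9 and 102.8 TPM, and for rps27a, which encodes ubiquitin fused to a ribosomal protein, 435.1 and 316.0 TPM against 173.9 and 107.9 TPM (adjusted p = 0.175 and 0.185 by limma). The groups of these 4 genes did not overlap.

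Levels of 6 genes stood closest to those of the siblings. The gene rpl24, whose product joins the large subunit late and contacts the small one, had 216.0 and 184.4 TPM in siblings against 205.6 and 104.5 TPM in mutants, so that mutant replicate 1 lay between the siblings. The gene rps24 had 267.6 and 214.0 TPM against 221.5 and 110.8 TPM, and rpl31, whose product lies near the exit of the peptide tunnel, had 84.7 and 120.3 TPM against 86.9 and 48.5 TPM. In these 3 genes the groups overlapped through mutant replicate 1, as they did for rpl35a, rpl22l1 and rps8b among the rest. The gene rps25, needed for initiation on some viral mRNAs, had 456.6 and 377.6 TPM against 330.2 and 187.2 TPM, without overlap. The log2 fold changes of these 4 genes lay between -0.74 for rps25 and -0.44 for rpl24 (adjusted p = 0.503 and 0.694 by limma). The other two were rpl12, described above, and rps8b, which ran higher.

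The gene rps8b had 2.84 and 6.71 TPM in siblings against 5.87 and 14.2 TPM in mutants, a log2 fold change of 0.91 (SE 0.55, adjusted p = 0.145 by limma). It exceeded the background limit in sibling replicate 2 alone. Its level is thus that of genes presumed unexpressed. Also low was rps19bp1, at 68.3 and 30.0 TPM in siblings against 9.31 and 22.1 TPM in mutants. It was under the limit in mutant replicate 1. All other members exceeded the limit in all 4 libraries.

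To set the scaling aside, each gene's log2 difference from the sibling mean was taken relative to the family median of the same mutant library. In mutant replicate 1 the family median was -0.94 and the SD over members 0.53, and in mutant replicate 2 they were -2.19 and 0.84. The 2 mutant libraries placed 25 genes above and 24 genes below the family median alike, and 28 genes on opposite sides, with 2 at the median of one library. By 0.5 or more in both mutants, 6 genes were above it (rpl24, rps24, rpl31, rps25, rpl30 and rps8b) and 4 below it (rpl3, rps4x, rpl10 and rps15). In mutant replicate 1 the lowest were rps26 at -1.67, rps19bp1 at -1.23 and rpl27 at -1.21, which in mutant replicate 2 stood at -0.45, 1.19 and -0.30. These positions are a description, since both mutants were set against the same siblings. With no library shared, mutant minus sibling differences in replicates 1 and in replicates 2 correlated over the 79 genes with r = 0.316, and with r = 0.258 when the siblings were exchanged, so the order of the falls within the family was only weakly alike.

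**Figure D4:**
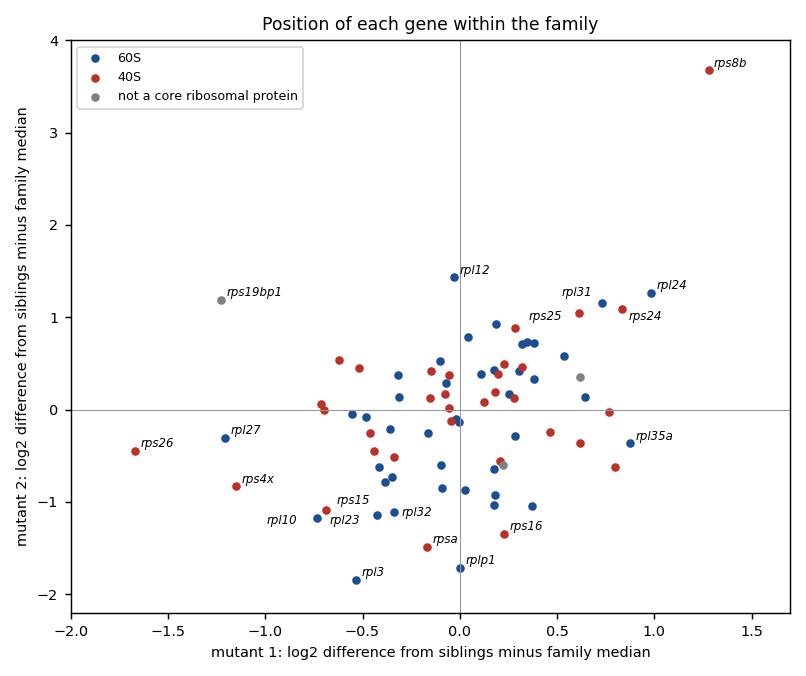
Each gene's log2 difference from the sibling mean minus the family median, in mutant 1 (x axis) and mutant 2 (y axis); blue points are 60S, red points 40S and grey points not core ribosomal proteins. Genes such as rpl3, rps4x, rpl10 and rps15 are low in both, rpl24, rps24, rpl31 and rps25 are high in both, and rps8b lies apart at the level of the background limit.

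Both subunits were lower in the mutants. The median log2 fold change was -1.64 for the 43 large-subunit genes and -1.52 for the 33 small-subunit genes. The mean TPM of large-subunit genes divided by that of small-subunit genes was 0.99 and 1.04 in the siblings and 0.965 and 0.911 in the mutants. The mutant ratios of 0.938 ± 0.038 lay below the sibling ratios of 1.02 ± 0.038 (SD, n = 2 each), and no scaling of a library changes them. By medians in place of means the groups overlapped, at 1.01 and 1.13 in the siblings and 1.17 and 0.826 in the mutants, so a shift between the subunits is not shown.

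Pairs of related genes, chosen by symbol after the values were seen, showed the balance between copies, and reads of near-identical copies could have been split between them by the authors' counting. The ratio of rps26 to rps26l was 1.65 and 1.66 in the siblings and 0.544 and 1.08 in the mutants, without overlap. For any single pair such a separation has an exact permutation p of 0.333, the smallest that 2 libraries against 2 allow. It does not by itself show a switch between copies. The level of rps26l itself was 203.8 and 172.6 TPM in siblings against 92.1 and 45.5 TPM in mutants (adjusted p = 0.151 by limma). The ratio of rps8a to rps8b was 224.7 and 84.3 in the siblings and 38.6 and 7.72 in the mutants, where rps8b was under the background limit. The level of rps8a was 639.0 and 565.3 TPM against 226.5 and 110.0 TPM (adjusted p = 0.0749 by limma).

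For the remaining pairs the groups overlapped. The ratio of rpl5a to rpl5b was 1.53 and 1.04 in the siblings and 1.46 and 1.18 in the mutants. Rpl22 and Rpl22l1, which have opposing roles in blood cell development in zebrafish, had a ratio of 2.72 and 5.31 in the siblings and 1.98 and 3.33 in the mutants. For rpl22 the levels were 424.2 and 258.4 TPM against 137.9 and 78.9 TPM, and for rpl22l1 155.9 and 48.7 TPM against 69.6 and 23.7 TPM (adjusted p = 0.124 and 0.287 by limma). The ratio of rps27.1 to rps27.2 was 4.38 and 2.63 in the siblings and 1.75 and 5.83 in the mutants, and rps27.2 had 232.8 and 224.6 TPM against 206.7 and 31.7 TPM. In that pair the mutants lay on either side of both siblings. The ratio of rplp2 to rplp2l was 1.23 and 1.68 against 2.1 and 0.874, and that of rpl7 to rpl7l1 was 4.63 and 5.07 against 2.98 and 7.11, again with the mutants on either side.

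Ribosomal proteins outside the name rule had like values. The upper case rows RPL29 and RPL37A were lower in both mutants, with log2 fold changes of -1.98 and -2.04 that did not pass (adjusted p = 0.0683 and 0.0576 by limma). So was gnb2l1, the gene of the scaffold protein Rack1 (675.8 and 459.0 TPM against 192.6 and 150.9 TPM, adjusted p = 0.113 by limma). Of the fau genes, faua was called lower, from 432.1 and 370.3 TPM to 179.8 and 43.4 TPM (log2 fold change -2.16, adjusted p = 0.0484 by limma).

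Genes that build or use the ribosome were then counted beside the family. Over all genes tested, 4.43% were called lower and 44.6% higher, and of the other abundant genes 35.2% were called lower; each list's counts are read beside those shares. Of 106 ribosome biogenesis genes 17 (16%) were called lower and 3 (2.83%) higher in limma, with a median log2 fold change of -0.80. Only 49 and 27 of them exceeded the background limit in mutants 1 and 2, so that median is not comparable with the family's. The nucleolar gene npm1a, whose product chaperones ribosome assembly, fell from 437.5 and 375.4 TPM to 33.5 and 33.7 TPM (log2 fold change -3.55, adjusted p = 0.00592 by limma). The box H/ACA particle gene nhp2 fell from 214.7 and 198.0 TPM to 50.6 and 10.2 TPM, and nol12 from 27.19 and 59.2 TPM to 3.01 and 8.31 TPM (adjusted p = 0.0112 and 0.00434 by limma). The mutant levels of nol12 were under the background limit in both libraries and that of nhp2 in replicate 2. The genes called higher were nmd3, heatr1 and utp20. All 3 were under the background limit in both siblings, and only utp20 exceeded it in a mutant, at 14.5 TPM in replicate 1. Of 11 RNA polymerase I genes 2 (18.2%) were called, polr1a and polr1b, both higher and at levels below the limit of each library.

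Of 71 mitochondrial ribosomal protein genes, which build the separate ribosome of mitochondria, 14 (19.7%) were called, all lower, and the median log2 fold change was -1.12. In mutants 1 and 2, 50 and 32 of the 71 exceeded the background limit. The largest called fall was mrpl45, from 102.5 and 71.6 TPM to 10.2 and 10.5 TPM (log2 fold change -2.93, adjusted p = 0.00809 by limma). The next by p-value were mrpl37 and mrps9 (log2 fold changes -2.24 and -2.11, adjusted p = 0.0191 and 0.0196). In the mutants mrpl45, mrpl37 and mrps9 were under the background limit.

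Of 15 elongation factor genes 4 (26.7%) were called lower and 2 (13.3%) higher. The gene eef1a1l1, of the factor that brings aminoacyl-tRNA to the ribosome, fell from 1966 and 1605 TPM to 754.6 and 74.2 TPM (log2 fold change -2.90, adjusted p = 0.0158 by limma). The other falls were eef1db, which was under the background limit in both mutants, eif5a2 and eef2b, and the genes called higher, eef1a1a and eef1a1b, stayed below the limit of each library. In a list of 23 genes of nascent chain factors and other TOP mRNAs, 7 (30.4%) were called lower and 2 (8.7%) higher, with a median log2 fold change of -1.25. Among the 7 was npm1a, which was also counted with the ribosome biogenesis genes. The falls included tpt1, from 1177 and 634.1 TPM to 279.5 and 59.2 TPM, and eif3ea, from 235 and 220.7 TPM to 49.6 and 16.5 TPM (adjusted p = 0.0212 and 0.015 by limma), where eif3ea was under the limit in mutant replicate 2. The genes called higher, larp1 and nacad, stayed below the limit of each library.

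Of 16 genes of mTOR signalling and S6 kinases, 2 (12.5%) were called lower and 2 (12.5%) higher. The falls were in eif4ebp2 and eif4ebp3l, which encode inhibitors of cap-dependent initiation (log2 fold changes -2.57 and -2.70, adjusted p = 0.024 and 0.0182 by limma), and eif4ebp3l was under the limit in mutant replicate 2. The genes called higher, rps6kb1a and rps6ka1, stayed below the limit of each library. The calls in all these lists, like those of the family, became 0 when the libraries were rescaled by median of ratios or made equal in quantiles, since no gene of the table was then called.

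**Figure D5:**
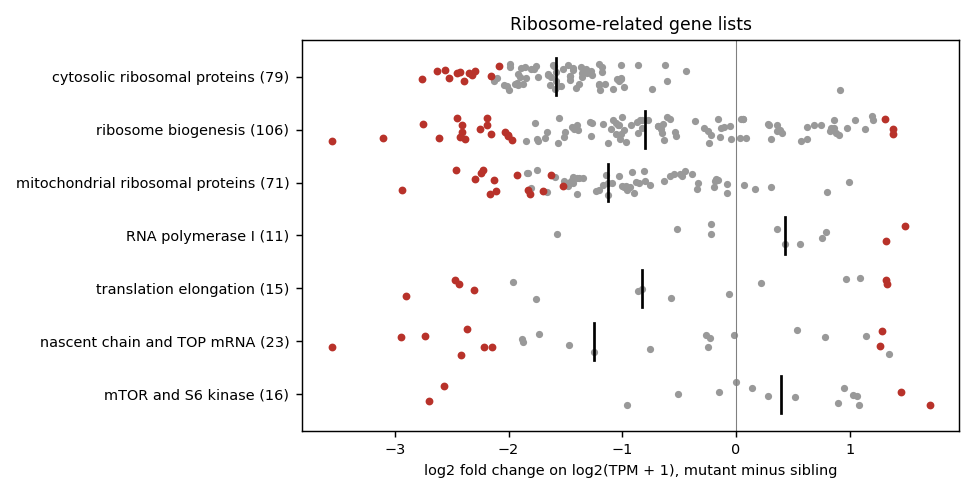
Log2 fold change (mutant minus sibling, on log2(TPM + 1)) of each gene of the ribosomal protein family and of 6 related lists, with the number of genes in parentheses; red points have a limma adjusted p under 0.05 and black bars are medians. The median is -1.59 for the cytosolic ribosomal proteins, -1.12 for the mitochondrial ones and -0.80 for ribosome biogenesis. In mutants 1 and 2 only 50 and 32 of 71 mitochondrial genes exceeded the background limit. Of 106 biogenesis genes 49 and 27 did, so these medians are not directly comparable with that of the cytosolic family.

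The summed levels of most cell type marker lists were lower in the mutants, and that of neural markers was higher. No neural marker exceeded the background limit in either mutant library. The 12 endothelial markers summed to 3743 and 3265 TPM in siblings against 1502 and 405 TPM in mutants, and the 10 venous and lymphatic markers to 2913 and 2309 TPM against 1147 and 410 TPM. Globins and other erythroid genes (9 listed) summed to 3766 and 3217 TPM against 1468 and 548 TPM, skeletal muscle genes (16) to 620 and 1634 TPM against 311 and 531 TPM, and myeloid genes (10) to 523 and 520 TPM against 176 and 134 TPM. Epidermal genes (9) summed to 1323 and 861 TPM against 709 and 289 TPM, neural genes (10) to 70.1 and 75.4 TPM against 81.5 and 122 TPM, and mural and fibroblast genes (9) to 192 and 170 TPM against 147 and 126 TPM. Calls by limma were 8 lower and 0 higher for endothelial, 4 and 1 for venous and lymphatic, 2 and 3 for erythroid, 2 and 1 for muscle and 3 and 3 for myeloid genes. They were 1 and 3 for epidermal, 0 and 6 for neural and 0 and 2 for mural and fibroblast genes. Of the markers called higher, only slc4a1a exceeded the background limit in a mutant, at 19.25 TPM in replicate 2. The others called higher were at the level of presumed unexpressed genes in both mutants. The median log2 fold change was -2.11 for endothelial genes, -1.78 for venous and lymphatic, -0.94 for erythroid and -0.58 for muscle genes, but 0.92 for myeloid, 0.36 for epidermal, 1.48 for neural and 0.17 for mural and fibroblast genes. No marker of these lists was at 0 in any library except fbln1, which was listed at 0 in all 4. Mitochondrially encoded RNAs summed to 12890 and 8731 TPM in siblings against 8994 and 10750 TPM in mutants. The part of these differences in the fall of ribosomal protein mRNA was not tested.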

How the data were processed

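Per the file headers, the authors deposited TPM per gene, 1 table per library. Per the submitters' processing notes, the tools were Trim Galore 0.6.6, cutadapt 2.8, HISAT2 2.2.1, SAMtools 1.7 and StringTie 2.1.4, and the build was GRCz11; their settings, strand use and filters are not given in the sources used here. Per the labels' protocols, the cDNA came from a SMART-Seq v4 kit for very small RNA inputs. In R 4.3.3, limma 3.58.1 was fitted to log2(TPM + 1) of the whole table with a group term alone, over genes of a mean TPM of at least 1 and with trended eBayes moderation; the script was tested on simulated data. Tests were two-sided. Fold changes on this scale understate those of low genes. With 2 residual degrees of freedom, moderation replaced each gene's variance by the trend, so SEs and p-values do not measure the gene's own replicate spread. A single gene tested by exact permutation cannot go below p = 0.333 with 2 libraries against 2.

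Values were given for the 6 most abundant members, the 6 largest falls, the 6 smallest falls or rises, members of well known role, related pairs and, of each list, up to 3 genes of smallest p. The rule's pairs by protein identity were replaced by pairs by symbol. Called members outside the rule (rpl23, rpl27, rpl36), further list genes and genes named by position in the family were chosen after their values were seen. The members and lists were chosen with earlier results of these data known. Alternatives changed the scaling, pseudocount, filter, moderation, threshold, block, members and libraries. Some genes that enter the counts and sums are not reported here by name.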

Additional observations from a re-analysis of the deposited data

How the results depend on the processing

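Members called lower (12 by limma at an adjusted p under 0.05) and all genes called lower (1255) and higher (12618) became 0, 0 and 0 under each of median-of-ratios rescaling, quantile normalization and background subtraction (the last chosen after seeing the data). At an unadjusted p under 0.05 there were 4110 genes lower and 1218 higher, 1828 and 1335, and 2711 and 285 in these limma fits, and 57, 5 and 13 members lower. They became 0, 5 and 41 with no filter on low values. With no trend they were 49, 1986 and 8103. A threshold of 0.1 gave 32 members and 1886 genes lower, and rescaling to an equal total over the listed rows gave 718 genes lower. The family median log2 fold change of -1.59 moved to -2.96 after median-of-ratios rescaling and to -0.19 after quantile normalization. With the replicate block, limma called 10 members lower, 1 higher (rps8b, adjusted p = 0.0469) and 666 genes lower; rps20, rps2 and rpl7 gained the call (adjusted p = 0.0379, 0.0289 and 0.048), and rplp1, rpsa, rpl23, rpl27 and rpl36 lost it (0.0861, 0.0657, 0.0614, 0.0539 and 0.0516). Same-numbered libraries deviated together with r = 0.13 over 28301 genes, which with 2 pairs shows no pairing. Leaving out each library in turn, members called lower ranged from 0 to 70 and higher from 0 to 1, all genes lower from 66 to 1723 and higher from 460 to 14087; the lone library left in a group is assumed to vary like the others. Changes of sign are given for the 35 named members only. The sign changed for rps8b after median-of-ratios rescaling (-0.27) and background subtraction (-0.30), and for rpl24 after rescaling over the listed rows (0.078) and among the fits that left out 1 library (-0.927 to 0.042, the last without mutant replicate 2). After quantile normalization the sign changed for 11 of these 35 members. They were rpl24 (0.98), rps24 (0.83), rpl31 (0.67), rps25 (0.65), rpl12 (0.51), rpl11 (0.36), rpl5a (0.23), rpl5b (0.17), rps6 (0.065), rps19 (0.025) and rps27a (0.017). Members not named may also have changed sign. The cause was not tested. The pseudocounts, the filter at 5 TPM, robust moderation and both other member sets kept the counts of members and of all genes within 1.5 times. Single calls were still lost: 2 with a pseudocount of 0.5 (rpl19 and rpl36) and 3 with robust moderation (also rpl32), while a pseudocount of 5 added 2 (rps2 and rps20). Of the 35 named members 9 were called, and all 9 lost the call under no filter, under both rescalings named first, under background subtraction and without either sibling. The summed TPM ratio (0.135 to 0.501) and the subunit ratio (0.896 to 0.949) kept their direction in the alternatives in which each was computed. The range of the summed ratio does not describe quantile normalization, after which the family median log2 fold change was -0.19.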
